A study of Homo sapiens with 40 samples.

Results

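The genes described here are 37 genes of protein folding, quality control and stress signaling in the endoplasmic reticulum, chosen by their symbols from a curated list; no measured value enters the rule, although earlier results of these data were known when the list was made. All 37 have a row among the 28278 gene symbols of the count table, and all 37 were among the 16739 genes with enough counts to be tested. RNA was sequenced from HEK293T cells, a human embryonic kidney line that carries the SV40 large T antigen, in 40 libraries. They come from 5 lines, each treated for 6 hours with vehicle or with antimycin A at 40 nM, an inhibitor of complex III of the mitochondrial respiratory chain, with 4 libraries per line and treatment. The series design names target genes of the integrated stress response (ISR), which slows translation and induces the transcription factor ATF4, and its relation to mitochondrial respiration as the subject.

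The first line is wild type with an empty vector (WT-vector cells). The other 4 carry a guide against SLC25A12, a mitochondrial carrier of aspartate and glutamate, and are taken as knockouts. They received an empty vector (KO-vector cells), an SLC25A12-WT construct, an SLC25A12-F137S construct (F137S cells), or SLC25A12-F137S together with a construct labelled dMTS-DELE1 (dMTS-DELE1 cells). DELE1 is a mitochondrial protein that relays mitochondrial stress to the ISR. Whether a line is 1 clone or a pool, and what drives the constructs, is not stated in the labels. The labels call the 4 libraries biological replicates without saying that they were separate cultures, so p-values measure the spread between these libraries, which may be technical.

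Secreted and membrane proteins enter the endoplasmic reticulum through the SEC61 channel and are folded there by the chaperone HSPA5 (BiP), by the lectins calnexin and calreticulin and by protein disulfide isomerases. Proteins that fail to fold are handed back to the cytosol for degradation, a route called ERAD. Unfolded protein is sensed by IRE1 (gene ERN1), ATF6 and PERK (gene EIF2AK3). The first acts through splicing of XBP1 mRNA, and XBP1 and ATF6 are known to raise chaperone and ERAD genes, while PERK feeds into ATF4 and so shares its output with the ISR. Changes in this program are known as the unfolded protein response.

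Library totals ran from 30730335 to 31965438 counts. SLC25A12 mRNA in vehicle stood at 38.7 ± 1.82 CPM (counts scaled to the library total) in WT-vector cells, 3.08 ± 0.231 in KO-vector cells, 1853 ± 18.3 in F137S and 3716 ± 25.7 in dMTS-DELE1 libraries (mean ± SD, n = 4 libraries each). The libraries labelled KO plus SLC25A12-WT were at 38.9 ± 0.33 CPM, within the WT-vector range, and 0% of the 16739 genes passed the test between them and WT-vector cells in vehicle. Whether their label holds cannot be settled from these values, so they are called the libraries labelled KO plus SLC25A12-WT throughout, and comparisons without them are given first. DELE1 mRNA was 45.9 ± 2.15 CPM in F137S cells and 5344 ± 84.7 CPM in dMTS-DELE1 cells. The neurofilament genes NEFM, NEFL and INA and the transcription factor PAX2, known in HEK293 cells, were all detected, while UMOD, a marker of the adult kidney tubule, had 0 counts in every library. Of 9 kidney markers 3 had enough counts to be tested, and their sum ran from 1.1 to 3.24 CPM. Among 4 fibroblast markers COL1A1 reached 20.9 CPM and COL1A2 stayed at or below 0.0649 CPM, and 0 of 3 markers of blood vessel lining and 0 of 4 of blood cells had enough counts to be tested.

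KO-vector cells had lower levels of most of these genes than WT-vector cells before any stress. Of 37 genes, 30 were lower, 0 were higher and 7 did not pass the test, where 25.6% of all tested genes were lower and 48.3% differed in either direction (edgeR's quasi-likelihood test, Benjamini-Hochberg adjusted p under 0.05). The median log2 difference was -0.24 over the 37 genes and -0.01 over all tested genes. With a log2 difference of at least 0.32 as well, 12 of the 37 were lower, and 19.2% of all tested genes passed in either direction. In the 30 genes called, the 4 KO-vector libraries all lay below the 4 WT-vector libraries, as they did in 22.9% of all tested genes. Apart from that minimum difference, which 18 of the 30 did not reach, none of the 30 calls was lost under the alternatives run, each library left out in turn included. The set's share of all counts was 1.16% in WT-vector and 0.951% in KO-vector libraries. The summed level of the 4 HEK293 genes moved with the lines too, from 343 to 361 CPM in WT-vector, 186 to 194 CPM in KO-vector, 184 to 197 CPM in F137S and 171 to 180 CPM in dMTS-DELE1 libraries in vehicle, and its part in the results was not tested. In a bulk sample, fewer cells with a high level and less RNA per cell cannot be told apart.

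All 3 luminal chaperones were lower. HSPA5, the main Hsp70 of the organelle, was 1515, 1449, 1504 and 1494 CPM in the WT-vector libraries and 959, 974, 948 and 932 CPM in the KO-vector libraries. The groups lie far apart, and the difference was -0.65 ± 0.02 (log2 fold change ± SE, adjusted p = 9.69e-28), or 1.56-fold lower. HSP90B1 (GRP94), the Hsp90 of the organelle, differed by -0.42 ± 0.02 and HYOU1, a large Hsp70 that exchanges nucleotide on HSPA5, by -0.26 ± 0.02.

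All 7 co-chaperones were lower as well. SDF2L1, which binds with HSPA5 and its J-domain partner to keep unfolded clients soluble, was 68.0, 73.4, 72.2 and 74.6 CPM in WT-vector and 36.1, 38.6, 38.8 and 38.2 CPM in KO-vector libraries. Every KO-vector library was below every WT-vector library, with a difference of -0.92 ± 0.04 (adjusted p = 1.8e-30), or 1.90-fold lower. DNAJB9 (ERdj4), a J-domain protein that directs HSPA5 to ERAD clients and to IRE1, was 38.4, 41.4, 39.4 and 37.2 CPM against 24.8, 22.7, 24.2 and 23.9 CPM, again without overlap (-0.71 ± 0.05, adjusted p = 3.81e-21). MANF, a secreted protein that stabilizes HSPA5 with its clients, differed by -0.44 ± 0.04 and SIL1, another nucleotide exchange factor of HSPA5, by -0.39 ± 0.06. The J-domain proteins DNAJC10 (-0.34 ± 0.02), DNAJB11 (-0.23 ± 0.02) and DNAJC3 (-0.23 ± 0.03) moved less.

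All 8 genes of the lectin and disulfide group were lower, by unequal amounts. CALR (calreticulin), the soluble lectin, was 1192, 1170, 1158 and 1152 CPM in WT-vector and 733, 751, 746 and 743 CPM in KO-vector libraries, without overlap (-0.65 ± 0.02, adjusted p = 3.8e-48). CANX (calnexin), its membrane-bound relative, differed by -0.06 ± 0.02, although its libraries did not overlap either. CRELD2, which has been linked to disulfide exchange, was at -0.55 ± 0.04 and CRELD1 at -0.30 ± 0.05. The disulfide isomerases PDIA4 (-0.26 ± 0.02), PDIA6 (-0.24 ± 0.02), PDIA3 (-0.16 ± 0.02) and P4HB (-0.13 ± 0.02) lay between.

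CALR lies in a stretch of chromosome 19 whose genes were mostly lower too. Among 202 tested genes within 5 Mb of CALR, the median difference between KO-vector and WT-vector cells in vehicle was -0.51, and 182 of them were below 0. For the other 36 genes of the set, the medians of neighbours within the same distance ran from -0.19, for DERL2 on chromosome 17, to 0.22, for ERLEC1 on chromosome 2. HERPUD1, SDF2L1, DNAJB9 and HSPA5 had neighbour medians of 0.04, 0.02, -0.08 and -0.04. The part of the chromosome 19 shift in the CALR result was not tested. Of the 37 genes, 36 were below the median of their own neighbours, the exception being DERL1. They include genes that did not pass the test, such as ATF6 and EDEM1, and the low-count genes DERL3 and EDEM2. The share of all tested genes that lie below the median of their neighbours was not computed. These neighbour medians were computed after the differences had been seen.

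Among 11 degradation genes, 7 were lower and 4 did not pass the test. HERPUD1, a membrane protein that assembles the ERAD complex and turns over fast, had the largest difference of the set among genes passing the test. It was 139.9, 130.8, 131.6 and 133.7 CPM in WT-vector libraries and 66.7, 70.4, 67.0 and 66.2 CPM in KO-vector libraries. The 2 groups lie apart by far more than their spread (-0.99 ± 0.03, adjusted p = 1.97e-43), or 1.98-fold lower. SEL1L, the adaptor of the ubiquitin ligase HRD1, was at -0.39 ± 0.03, and SYVN1, which encodes HRD1, at -0.14 ± 0.04. DERL2 (-0.24 ± 0.04), OS9 (-0.23 ± 0.03), EDEM3 (-0.18 ± 0.03) and ERLEC1 (-0.11 ± 0.04) were lower too. These encode a channel component, a lectin that reads trimmed glycans, a mannosidase-like protein and a second such lectin. EDEM1, EDEM2, DERL1 and DERL3 did not pass the test.

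In the sensor and factor group 1 of 3 genes, XBP1, was lower in KO-vector than in WT-vector cells in vehicle. ATF6 mRNA was 79.9, 76.7, 76.1 and 74.2 CPM in WT-vector and 77.2, 75.6, 79.4 and 74.7 CPM in KO-vector libraries. The 2 ranges overlap fully, and the 95% interval of the log2 difference ran from -0.07 to 0.07. ERN1 differed by -0.07 ± 0.05 (adjusted p = 0.26, interval -0.18 to 0.03). XBP1 was lower by a small amount (-0.19 ± 0.02, adjusted p = 1.9e-11), and counts per gene do not separate its spliced from its unspliced mRNA. EIF2AK3, the gene of PERK and not one of the 37, was at -0.28 ± 0.05 (adjusted p = 5.6e-06). In the translocation and export group 4 of 5 were lower, namely SEC24D (-0.35 ± 0.04), a coat protein of export vesicles, SSR1 (-0.30 ± 0.02), a subunit of the translocon-associated complex, and the channel subunits SEC61A1 (-0.25 ± 0.02) and SEC61B (-0.22 ± 0.03). SEC61G did not pass the test.

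**Figure D1:**
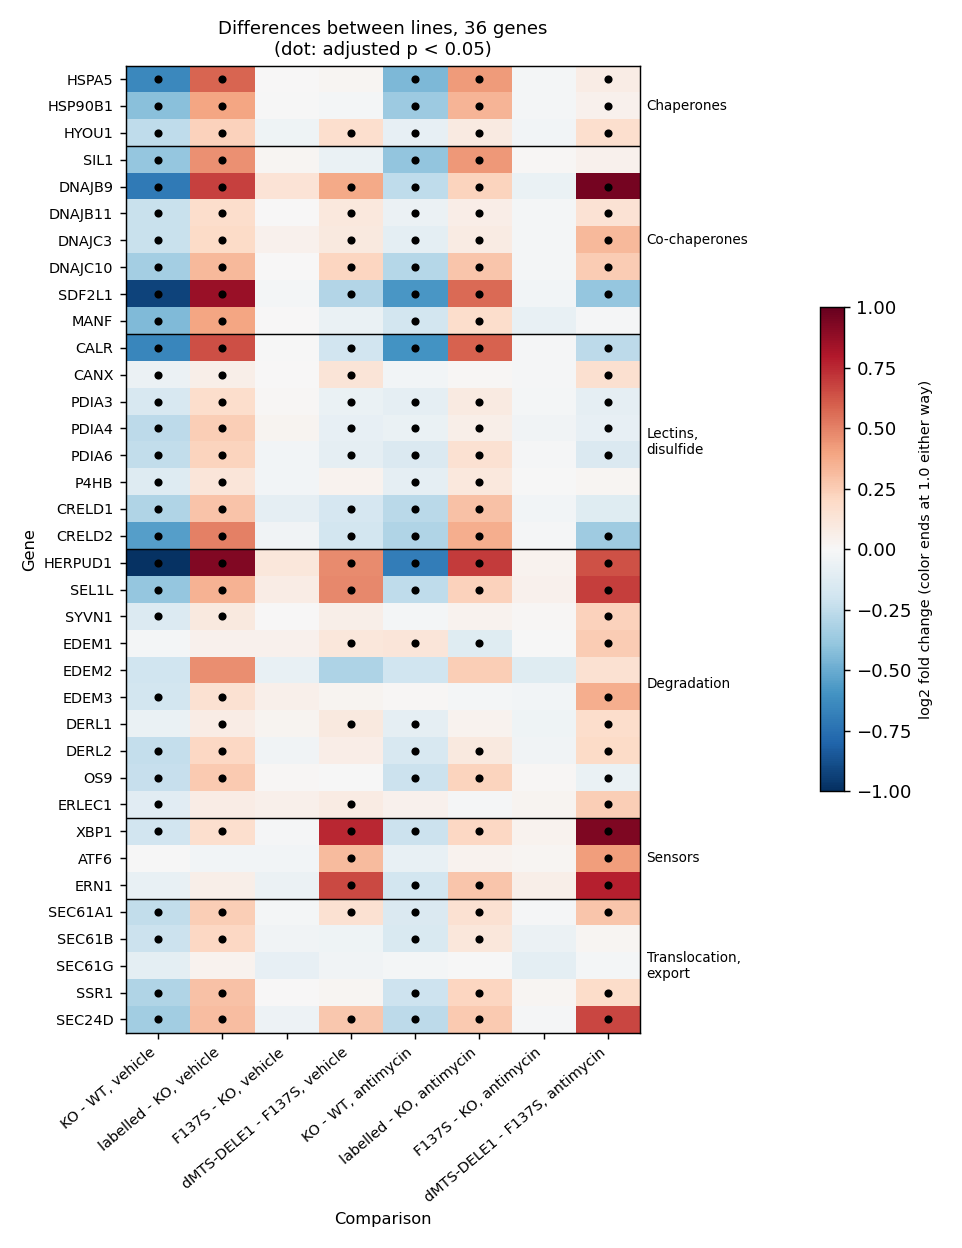
Log2 fold change of 36 genes (rows, grouped by role) in 8 comparisons between lines (columns); blue is lower, red is higher, the color scale ends at 1.0 either way and a dot marks an adjusted p under 0.05. DERL3 is left out because of its low counts. The first column is blue in every role group, the F137S columns are near white without a dot, and the dMTS-DELE1 columns are red for XBP1 and the sensors ATF6 and ERN1 and blue for CALR, SDF2L1 and CRELD2.

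Promoter sequence is shown for the 4 genes with the largest decreases among genes with a promoter window, and for HSPA5, added after its values were seen, since the stress elements that ATF6 and XBP1 bind were defined in promoters of such genes. The windows are the 250 bases before the annotated start in RefSeq on GRCh38.p14, read 5′ to 3′ on the gene's strand. Capitals mark the fixed letters of the endoplasmic reticulum stress element (ERSE, the letters CCAAT and CCACG with 9 free bases between) or of the shorter element ERSE-II (ATTGG and CCACG with 1 free base between), on either strand. HERPUD1 is shown for chr16:56931892-56932141 (plus strand), SDF2L1 for chr22:21642052-21642301 (plus), DNAJB9 for chr7:108569624-108569873 (plus), CALR for chr19:12938359-12938608 (plus) and HSPA5 for chr9:125241344-125241593 (minus).
HERPUD1: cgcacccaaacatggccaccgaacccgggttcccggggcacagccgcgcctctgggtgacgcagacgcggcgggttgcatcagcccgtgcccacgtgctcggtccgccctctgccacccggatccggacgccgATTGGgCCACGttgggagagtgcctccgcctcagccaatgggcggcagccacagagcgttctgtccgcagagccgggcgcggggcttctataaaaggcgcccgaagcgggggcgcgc
SDF2L1: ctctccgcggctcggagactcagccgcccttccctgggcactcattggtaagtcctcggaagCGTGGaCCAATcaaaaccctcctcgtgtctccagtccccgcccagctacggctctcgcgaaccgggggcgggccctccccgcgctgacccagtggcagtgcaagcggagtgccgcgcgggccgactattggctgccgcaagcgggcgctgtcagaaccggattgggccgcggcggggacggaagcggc
DNAJB9: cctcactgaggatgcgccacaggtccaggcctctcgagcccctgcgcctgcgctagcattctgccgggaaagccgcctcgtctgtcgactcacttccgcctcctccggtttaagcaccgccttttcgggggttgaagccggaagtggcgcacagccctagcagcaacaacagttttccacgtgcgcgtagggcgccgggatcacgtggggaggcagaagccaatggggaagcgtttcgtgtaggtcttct
CALR: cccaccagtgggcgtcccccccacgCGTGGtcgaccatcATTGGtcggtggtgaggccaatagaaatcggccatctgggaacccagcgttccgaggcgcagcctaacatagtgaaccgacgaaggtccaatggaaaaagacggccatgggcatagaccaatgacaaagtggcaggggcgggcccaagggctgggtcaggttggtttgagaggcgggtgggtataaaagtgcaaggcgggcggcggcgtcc
HSPA5: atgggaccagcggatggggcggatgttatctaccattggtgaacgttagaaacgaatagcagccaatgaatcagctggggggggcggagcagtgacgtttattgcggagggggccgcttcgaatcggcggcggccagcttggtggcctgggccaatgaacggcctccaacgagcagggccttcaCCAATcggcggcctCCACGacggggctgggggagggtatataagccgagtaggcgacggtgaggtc

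HERPUD1 and SDF2L1 each held 1 ERSE-II, from -117 to -107 and from -188 to -178 of the start. CALR held 1 ERSE from -225 to -207 and HSPA5 1 from -66 to -48, and the DNAJB9 window held neither. Windows of 300 bases, 250 before and 50 after the start, were available for 33 of the 37 genes. An ERSE was present in 7 of the 33 genes (21.2%) and in 0.0916% of the 27305 genes with a window. The 7 genes were HSPA5, HSP90B1, CALR, CANX, PDIA6, CRELD2 and XBP1. ERSE-II was found in 3 of 33 (9.09%, HERPUD1, SDF2L1 and HYOU1) against 0.0696% of all. The element read by XBP1 (UPRE, TGACGTGG) was in 2 of 33 (6.06%, DNAJC10 and HYOU1) against 0.927%, and in HYOU1 it overlapped an ERSE-II. The ATF4 element (CARE, TGATGCAAT) was in 0 of 33 against 0.293%. These counts describe letters in a window and not binding, and a motif with other letters or farther away was not searched. Since the stress elements were defined in promoters of such genes, the contrast with all genes is partly fixed by the choice of genes and motifs.

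To show the letters of the elements side by side, with the free bases in lower case and each read in the direction of the element, 4 of them are given.
HSPA5 ERSE: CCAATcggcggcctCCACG
CALR ERSE: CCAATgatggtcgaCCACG
HERPUD1 ERSE-II: ATTGGgCCACG
SDF2L1 ERSE-II: ATTGGtCCACG

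The 10 genes with an ERSE or ERSE-II had a median of -0.49 between KO-vector and WT-vector cells in vehicle, and 10 of 10 were lower. The 23 with a window but neither element had a median of -0.23, with 18 of 23 lower. Both classes spread widely, from -0.99 to -0.06 and from -0.71 to 0.00, and DNAJB9 is the lowest of the second class. The classes describe these genes only, and no test was made between them.

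**Figure D2:**
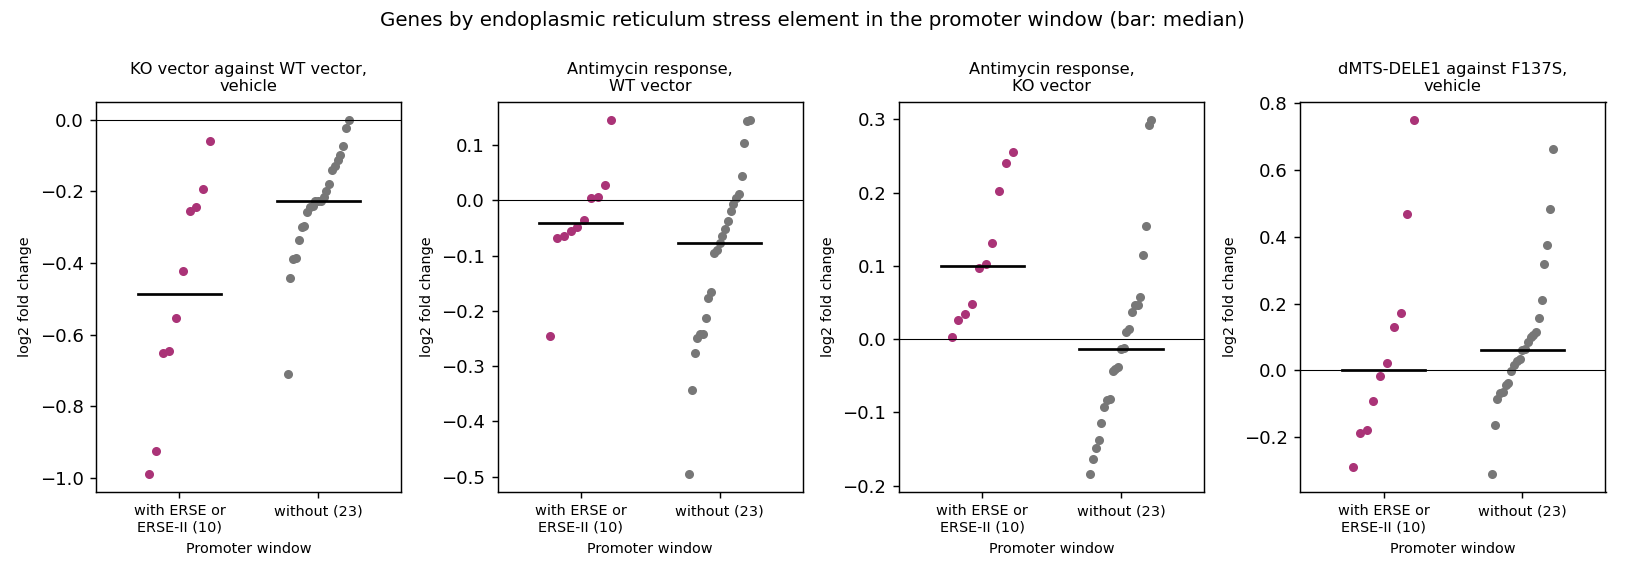
Log2 fold change (vertical axis, 4 comparisons, one panel each) of 10 genes with ERSE or ERSE-II in the promoter window and 23 genes without; points are genes and bars are medians. In the first panel the medians are -0.49 and -0.23, and in the antimycin response of KO-vector cells they are 0.10 and -0.01, with wide overlap between classes in every panel.

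No gene of the set differed detectably between F137S and KO-vector cells. Between F137S and KO-vector cells in vehicle, 0 of 37 genes differed, where 0.0836% of all tested genes did, and 0.0478% with a log2 difference of at least 0.32. At an unadjusted p under 0.05 there were 4, and the DESeq2 Wald test called 0. Leaving aside the low-count genes DERL3 and EDEM2, the differences ran from -0.09 (CRELD1) to 0.14 (DNAJB9), and the widest 95% bounds were -0.20 and 0.24. HERPUD1 was 72.7, 71.4, 73.5 and 74.3 CPM in F137S libraries, all above the 4 KO-vector libraries, with a difference of 0.11 ± 0.03 that did not pass the adjustment (adjusted p = 0.206). DNAJB9 (0.14 ± 0.05), SEL1L (0.08 ± 0.03) and HYOU1 (-0.04 ± 0.02) did not overlap between the lines either, and none passed the adjustment. The share of all tested genes without overlap was not computed for this comparison. Differences as large as the one between KO-vector and WT-vector cells in HERPUD1, SDF2L1, CALR or HSPA5 lie outside these bounds. Under antimycin 0 of 37 differed as well, against 0.114% of all tested genes (1 at an unadjusted p under 0.05, 0 by DESeq2), with values from -0.10 (SEC61G) to 0.06 (ERN1).

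The libraries labelled KO plus SLC25A12-WT had the levels of WT-vector cells. In vehicle 0 of 37 genes differed from WT-vector cells, as did 0% of all tested genes (2 of 37 at an unadjusted p under 0.05, 0 by DESeq2), and the 35 genes with ample counts ran from -0.06 (HERPUD1) to 0.07 (SIL1). Under antimycin 0 of 37 differed, against 0.00597% of all (0 unadjusted, 0 by DESeq2). Against KO-vector cells, 30 of 37 were higher in vehicle (25.3% of all tested genes were, and 47.8% differed), with HERPUD1 at 0.92 ± 0.03 and SDF2L1 at 0.86 ± 0.04, and 27 were higher and 1, EDEM1, lower under antimycin (24.7% and 23.5% of all, 48.2% together). These comparisons share the KO-vector libraries with the comparison to WT-vector cells, and the labels of these libraries are in doubt, so they add no independent measurement of a rescue.

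**Figure D3:**
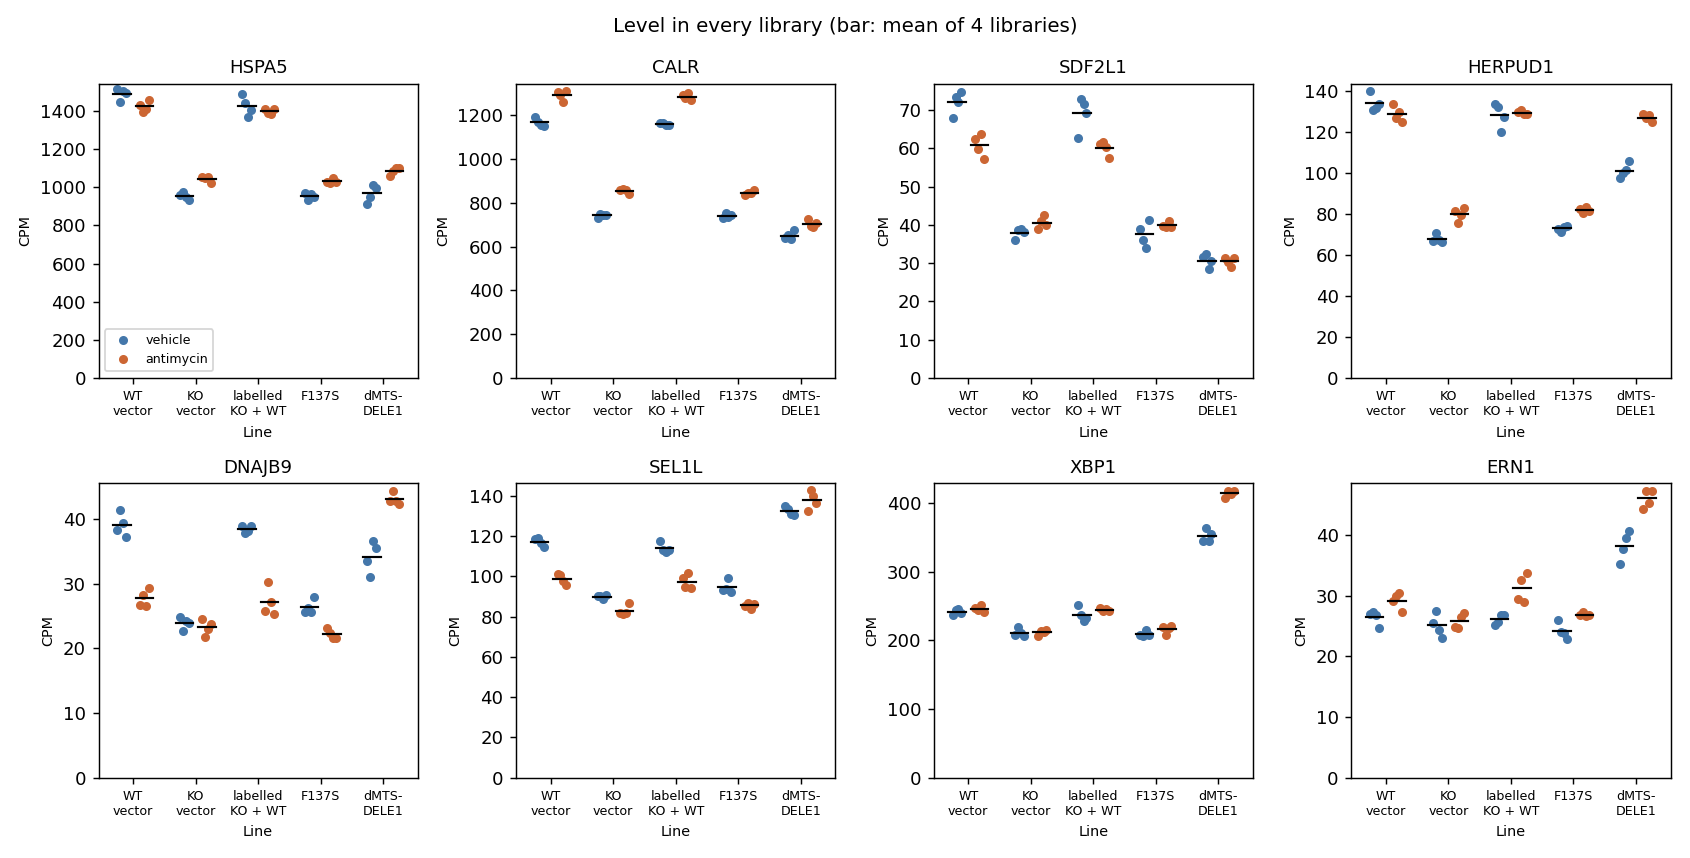
CPM (vertical axes, starting at 0) of 8 genes in every library of the 5 lines, blue for vehicle and orange for antimycin A; each point is 1 library and bars are means of 4. HSPA5, CALR, SDF2L1 and HERPUD1 are low in KO-vector and F137S cells, HERPUD1 and DNAJB9 are higher again in dMTS-DELE1 cells, and XBP1 and ERN1 are highest in dMTS-DELE1 cells.

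Antimycin lowered more of these genes than it raised in WT-vector cells. Of 37 genes, 5 were higher, 17 lower and 15 did not pass the test, where 51.9% of all tested genes changed, 25.5% higher and 26.4% lower. The medians were -0.05 for the set and 0.01 for all tested genes. DNAJB9 had the largest decrease, from 38.4, 41.4, 39.4 and 37.2 CPM in vehicle to 26.8, 28.2, 26.6 and 29.4 CPM under antimycin. The groups did not overlap (-0.49 ± 0.05, adjusted p = 3.86e-14). EDEM3 (-0.34 ± 0.03), SSR1 (-0.28 ± 0.02), SEL1L (-0.25 ± 0.03), SDF2L1 (-0.25 ± 0.04) and SEC61A1 (-0.24 ± 0.02) fell as well. Translocation and export genes fell in 4 of 5 cases and degradation genes in 6 of 11. The 5 genes that rose were CALR (0.15 ± 0.02), ERN1 (0.14 ± 0.05), OS9 (0.14 ± 0.03), PDIA4 (0.10 ± 0.02) and PDIA3 (0.05 ± 0.02). HSPA5 fell slightly (-0.06 ± 0.02, adjusted p = 0.0132) with overlapping libraries, and HERPUD1 did not pass the test (-0.06 ± 0.03, adjusted p = 0.099). The calls of HSPA5 (adjusted p = 0.17 without antimycin replicate 2 of the WT-vector libraries), ERN1 (adjusted p = 0.0892 without vehicle replicate 4) and PDIA3 (adjusted p = 0.067 without the same library) were lost when 1 library was left out. Other calls were lost this way too. The number lower ran from 12 (without WT-vector antimycin replicate 1) to 16 (without WT-vector vehicle replicate 4), against 17 with all libraries. SEC61B (-0.08 ± 0.03) and ATF6 (-0.09 ± 0.03) were called lower with overlapping libraries. The libraries labelled KO plus SLC25A12-WT gave 5 higher and 14 lower (25.9% and 26.4% of all, 52.3% in either direction), with DNAJB9 at -0.50 ± 0.05.

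In KO-vector cells antimycin raised 12 genes and lowered 8, with 17 not called, against 26.4% and 24.7% of all tested genes, or 51% in either direction. The set's median was 0.03 and that of all tested genes 0.02. Chaperones rose in 2 of 3 cases and genes of the lectin and disulfide group in 6 of 8, while translocation and export genes fell in 3 of 5. MANF rose from 136, 131, 134 and 119 CPM to 154, 160, 166 and 161 CPM, without overlap (0.30 ± 0.04, adjusted p = 2.38e-08). PDIA4 went from 394, 401, 396 and 402 CPM to 487, 501, 485 and 477 CPM (0.29 ± 0.02, adjusted p = 1.73e-23), also without overlap. CRELD2 (0.26 ± 0.04), HERPUD1 (0.24 ± 0.03), CALR (0.20 ± 0.02) and HSPA5 (0.13 ± 0.02) rose. DNAJB9 was at -0.04 ± 0.05 and did not pass the test. SSR1 (-0.18 ± 0.02), ATF6 (-0.16 ± 0.03) and EDEM3 (-0.15 ± 0.03) fell. In these cells 0 genes of the set were called with a log2 change of at least 0.32, against 20.6% of all tested genes.

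In F137S cells antimycin was followed by 13 genes higher, 9 lower and 15 not called (26.3% and 24.9% of all tested genes, 51.2% in either direction). CRELD2 rose by 0.28 ± 0.04 and PDIA4 by 0.22 ± 0.02, while DNAJB9 (-0.25 ± 0.05) and EDEM3 (-0.22 ± 0.03) fell. Again 0 genes were called with a log2 change of at least 0.32, against 20.1% of all. The difference of response between F137S and KO-vector cells passed the test for 0 of 37 genes and for 0% of all tested genes (2 of 37 at an unadjusted p under 0.05, 0 by DESeq2). For the 35 genes with ample counts it ran from -0.21 (DNAJB9) to 0.12 (ERN1).

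**Figure D4:**
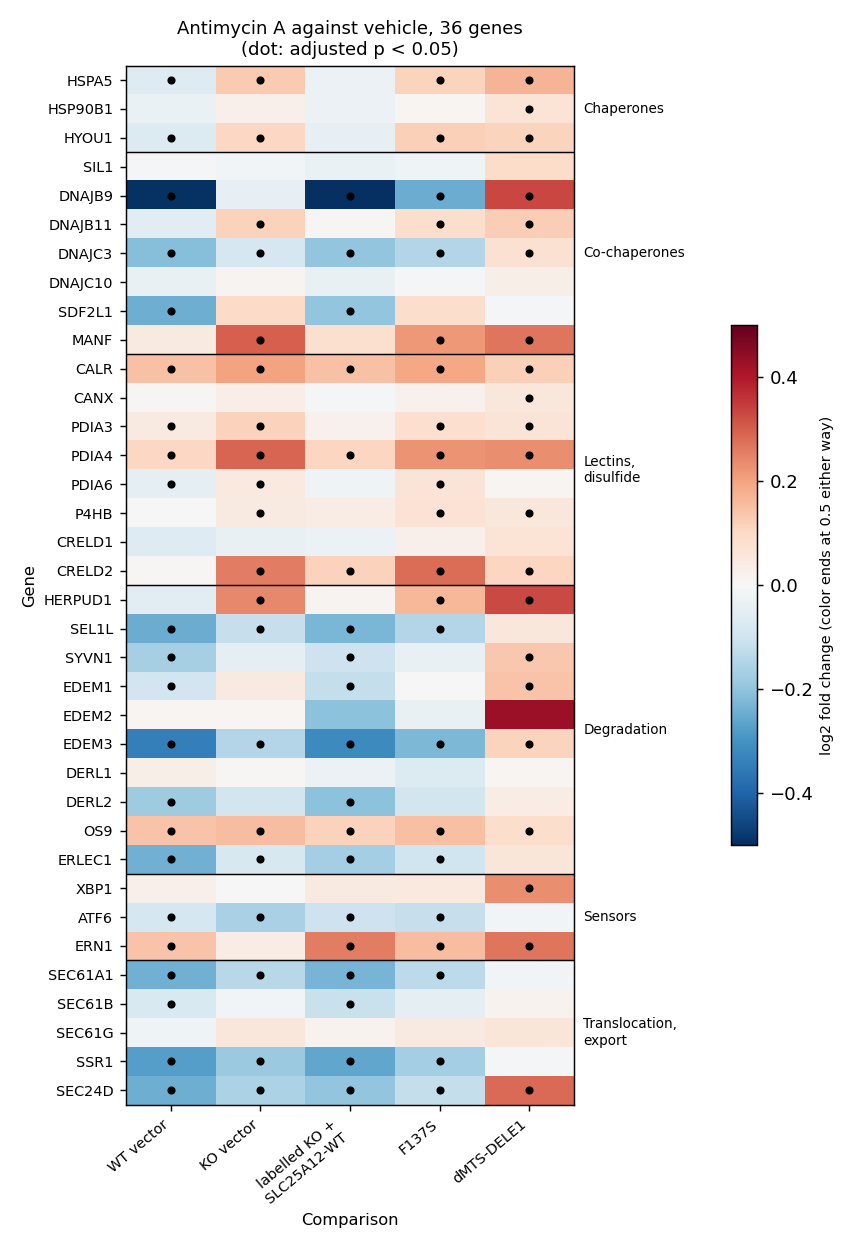
Log2 fold change of antimycin A against vehicle for 36 genes (rows, grouped by role) in the 5 lines (columns); blue is lower, red is higher, the color scale ends at 0.5 either way and a dot marks an adjusted p under 0.05. DERL3 is left out, and EDEM2 rests on few counts. DNAJB9 is dark blue in WT-vector cells at -0.49 and red in dMTS-DELE1 cells at 0.33. Of the translocation and export rows, SEC61A1, SSR1 and SEC24D are blue in every line except dMTS-DELE1. SEC61G is near white in all lines.

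The antimycin response itself differed between KO-vector and WT-vector cells in 12 of 37 genes, each more positive in the knockout, where 0.836% of all tested genes were more positive and 1.57% differed either way. The medians were 0.09 for the set and 0.01 for all tested genes. With DESeq2's size factors in place of TMM scaling, 11 were more positive and 0 more negative. Over all called genes, the share that was more positive went from 53.4% with TMM to 42.2% with size factors. DNAJB9 had the largest difference (0.45 ± 0.07, adjusted p = 7.36e-06), as it fell in WT-vector and not detectably in KO-vector cells. SDF2L1 followed (0.34 ± 0.06, adjusted p = 0.000203), with 62.4, 59.8, 63.7 and 57.3 CPM under antimycin in WT-vector cells and 38.9, 40.9, 42.5 and 39.9 CPM in KO-vector cells. HERPUD1 was at 0.30 ± 0.04, MANF at 0.26 ± 0.05, CRELD2 at 0.25 ± 0.06, HSPA5 at 0.20 ± 0.03, EDEM3 at 0.19 ± 0.04, PDIA4 at 0.19 ± 0.03, HYOU1 at 0.17 ± 0.03, DNAJB11 at 0.17 ± 0.03, SEC61A1 at 0.10 ± 0.03 and PDIA6 at 0.10 ± 0.03. By role these were 2 of 3 chaperones, 4 of 7 co-chaperones, 3 of 8 lectin and disulfide genes, 2 of 11 degradation genes, 0 of 3 sensors and 1 of 5 translocation and export genes. The calls of PDIA6 (adjusted p = 0.276 without vehicle replicate 4 of the KO-vector libraries) and SEC61A1 (adjusted p = 0.137 without the filter on low counts or without that library) were lost in these settings, and the other 10 calls held under the alternatives run other than the minimum difference. DNAJB9 and SDF2L1 were the 2 genes of the set called with a log2 difference of at least 0.32, against 0.436% of all tested genes. All 12 genes were also lower in KO-vector cells in vehicle, a comparison that shares its libraries with this one.

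The libraries labelled KO plus SLC25A12-WT gave the mirror of this against KO-vector cells, with 11 of 37 genes more negative and 0 more positive (0.944% and 0.705% of all tested genes, 1.65% together). The count was 6 without vehicle replicate 1 or antimycin replicate 1 of the labelled libraries, and 7 without their antimycin replicate 2 or 3 or without antimycin replicate 1, 2 or 4 of the KO-vector libraries. With size factors it was 9, and the share of more positive genes among all calls went from 42.8% to 57.3%. Against WT-vector cells 0 of 37 responses differed, as did 0% of all tested genes (0 unadjusted, 0 by DESeq2).

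Under antimycin most genes of the set were still lower in KO-vector than in WT-vector cells. Of 37 genes, 29 were lower, 1 higher and 7 not called, against 24.5% lower and 23.5% higher among all tested genes (48% in all), and the median was -0.18 against -0.00 over all. HERPUD1 was 133.6, 127.0, 129.9 and 125.1 CPM in WT-vector and 81.4, 75.5, 79.4 and 83.1 CPM in KO-vector libraries. They did not overlap (-0.69 ± 0.03, adjusted p = 1.16e-33). CALR was at -0.60 ± 0.02, SDF2L1 at -0.58 ± 0.04, HSPA5 at -0.45 ± 0.02 and DNAJB9 at -0.26 ± 0.05. EDEM1 was the gene that was higher (0.12 ± 0.03, adjusted p = 0.000356), with overlapping libraries. With a log2 difference of at least 0.32, 7 genes were called lower, DERL3 among them, against 19.3% of all tested genes in either direction.

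**Figure D5:**
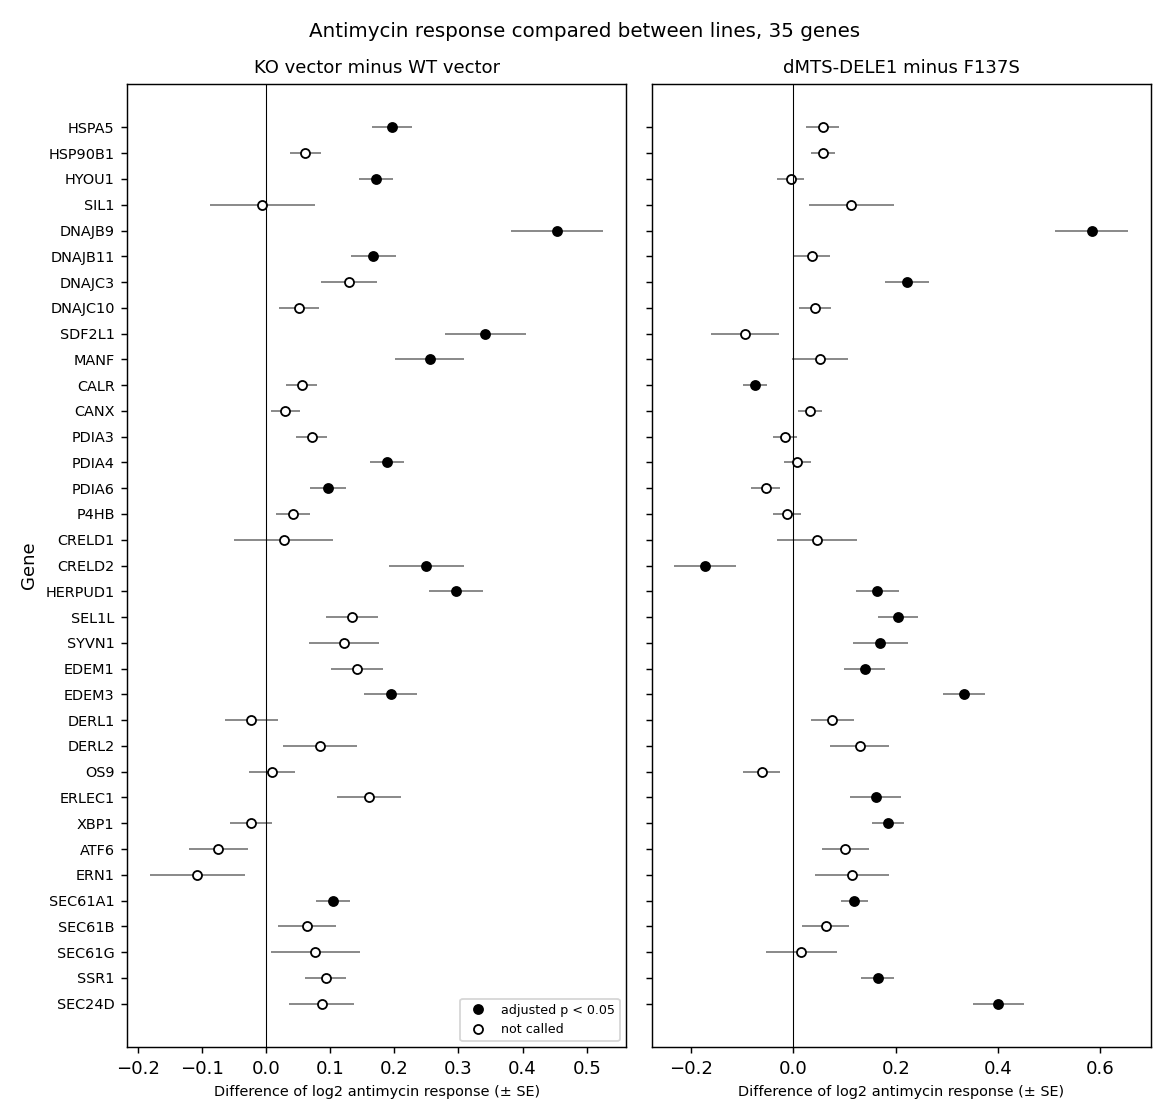
Difference of the log2 antimycin response (horizontal axes, ± SE) for 35 genes, KO-vector minus WT-vector cells on the left and dMTS-DELE1 minus F137S cells on the right; filled points have an adjusted p under 0.05. DERL3 and EDEM2 are left out. All 12 filled points on the left are above 0, led by DNAJB9 at 0.45, and on the right 12 are above and CALR and CRELD2 below 0.

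The dMTS-DELE1 cells had higher levels of XBP1, of the stress sensor genes and of several ERAD genes than F137S cells, and lower levels of several folding enzymes. In vehicle 16 of 37 genes were higher, 7 lower and 14 not called, against 17.7% and 24.1% of all tested genes, or 41.8% in either direction. The medians were 0.03 for the set and -0.02 for all tested genes. All 3 genes of the sensor and factor group were higher. XBP1 was 208, 206, 215 and 208 CPM in F137S libraries and 346, 363, 345 and 355 CPM in dMTS-DELE1 libraries. The groups lie far apart (0.75 ± 0.02, adjusted p = 1.28e-43), or 1.68-fold higher, and the levels are also above all 8 WT-vector libraries. ERN1 went from 26.0, 24.0, 23.8 and 22.9 CPM to 35.2, 37.8, 39.5 and 40.7 CPM, without overlap (0.66 ± 0.05, adjusted p = 1.01e-18). ATF6 was at 0.32 ± 0.03 and EIF2AK3, outside the set, at 0.20 ± 0.05 (adjusted p = 0.00165).

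Of 11 degradation genes 5 were higher and 0 lower, led by SEL1L (93.2, 93.9, 99.2 and 92.3 CPM against 134.8, 133.3, 131.2 and 130.3 CPM) and HERPUD1 (97.5, 99.7, 101.3 and 105.6 CPM in dMTS-DELE1 libraries). Neither overlapped (0.48 ± 0.03 and 0.47 ± 0.03). ERLEC1, 1 of the 5, was at 0.08 ± 0.04 (edgeR, adjusted p = 0.0486) with overlapping libraries. Of all 23 calls between these lines in vehicle, 22 held without the filter on low counts and with the replicate number as a block. With only the libraries compared it was 21. The dMTS-DELE1 level of SEL1L lies above WT-vector cells, whose libraries ran from 114.6 to 119.0 CPM, while that of HERPUD1 lies below their range of 130.8 to 139.9 CPM. DNAJB9 rose (0.38 ± 0.05), as did SEC24D (0.27 ± 0.04), DNAJC10 (0.21 ± 0.02), HYOU1 (0.17 ± 0.02) and SEC61A1 (0.16 ± 0.02).

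In the lectin and disulfide group 6 of 8 were lower and 1, CANX (0.13 ± 0.02), was higher. CALR was 732, 753, 733 and 744 CPM in F137S and 638, 652, 634 and 675 CPM in dMTS-DELE1 libraries, without overlap (-0.19 ± 0.02, adjusted p = 1.38e-15). CRELD2 (-0.18 ± 0.04), CRELD1 (-0.17 ± 0.06), PDIA6 (-0.09 ± 0.02), PDIA4 (-0.09 ± 0.02) and PDIA3 (-0.07 ± 0.02) were lower, and so was the co-chaperone SDF2L1 (-0.29 ± 0.05). The calls of CRELD1 (adjusted p = 0.118 without F137S vehicle replicate 1), PDIA3 (adjusted p = 0.0865 without dMTS-DELE1 vehicle replicate 1) and PDIA4 (adjusted p = 0.0663 without the same library) were lost with 1 library left out. HSPA5 did not pass the test (0.02 ± 0.02, adjusted p = 0.504, interval -0.02 to 0.07). SLC25A12 mRNA differed between these lines too, as given above, and its part in these values cannot be told apart from that of dMTS-DELE1.

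The antimycin response in dMTS-DELE1 cells was a rise in 21 of 37 genes with 0 lower and 16 not called, against 17.6% higher and 17.3% lower among all tested genes, 34.9% in all. The medians were 0.09 and 0.01. DNAJB9 rose from 33.5, 31.1, 36.6 and 35.5 CPM to 42.8, 44.4, 42.7 and 42.4 CPM, without overlap (0.33 ± 0.05, adjusted p = 3.63e-08). HERPUD1 rose by 0.33 ± 0.03, SEC24D by 0.28 ± 0.03, MANF and ERN1 by 0.27 (SE 0.04 and 0.05), XBP1 and PDIA4 by 0.23 (SE 0.02 for both). Of the 37 genes, 2 (DNAJB9 and HERPUD1) were called with a log2 change of at least 0.32, against 9.19% of all tested genes. With 1 library left out, 15 (without dMTS-DELE1 vehicle replicate 1) to 20 genes were called, each of them higher. With only the libraries compared it was 18. DNAJC3 (0.07 ± 0.03) and CRELD2 (0.11 ± 0.04) were called with overlapping libraries.

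Against F137S cells the response differed in 14 genes, more positive in 12 and more negative in 2, where 8.24% and 3.7% of all tested genes were (11.9% together). DNAJB9 had a difference of 0.58 ± 0.07 (adjusted p = 3.01e-09), SEC24D of 0.40 ± 0.05 and EDEM3 of 0.33 ± 0.04. SEC24D fell from 56.6, 58.0, 59.4 and 61.4 CPM to 54.9, 53.5, 51.0 and 57.5 CPM in F137S cells and rose from 67.0, 71.2, 71.4 and 73.4 CPM to 82.8, 87.0, 86.5 and 88.1 CPM in dMTS-DELE1 cells. The fall in F137S cells was not called without their antimycin replicate 3 (adjusted p = 0.0711, edgeR). DNAJC3, known as p58IPK and an inhibitor of PERK, was at 0.22 ± 0.04, SEL1L at 0.20 ± 0.04 and XBP1 at 0.18 ± 0.03. Of the degradation genes 6 of 11 had a more positive response. The 2 more negative responses were those of CRELD2 (-0.17 ± 0.06) and CALR (-0.08 ± 0.02). Of the 14 calls, 5 were lost without 1 library, CRELD2 without dMTS-DELE1 vehicle replicate 2 (adjusted p = 0.159) and CALR without dMTS-DELE1 vehicle replicate 4 (adjusted p = 0.133), and of the more positive ones SYVN1 without dMTS-DELE1 vehicle replicate 1 (adjusted p = 0.15), EDEM1 without F137S vehicle replicate 4 (adjusted p = 0.139) and ERLEC1 without F137S antimycin replicate 4 (adjusted p = 0.164).

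Under antimycin there were 22 genes higher in dMTS-DELE1 than in F137S cells, 7 lower and 8 not called (25.5% and 28.8% of all tested genes, 54.3% together, medians 0.16 and -0.02). DNAJB9 was 23.1, 22.4, 21.6 and 21.6 CPM in F137S libraries and 42.8, 44.4, 42.7 and 42.4 CPM in dMTS-DELE1 libraries (0.96 ± 0.05, adjusted p = 2.66e-28), or 1.94-fold higher. XBP1 reached 408, 418, 413 and 418 CPM against 219, 208, 218 and 221 CPM (0.94 ± 0.02, adjusted p = 3.27e-50), or 1.91-fold higher. Neither gene's libraries overlapped. ERN1 (0.78 ± 0.05), SEL1L (0.69 ± 0.03) and SEC24D (0.67 ± 0.04) followed. The lower genes were SDF2L1 (-0.39 ± 0.05), CRELD2 (-0.35 ± 0.04), CALR (-0.26 ± 0.02), PDIA6 (-0.15 ± 0.02), PDIA3 (-0.09 ± 0.02), PDIA4 (-0.08 ± 0.02) and OS9 (-0.07 ± 0.03), of which OS9 was lost with only the libraries compared (adjusted p = 0.136).

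A wider list of 62 other genes of translocation, glycosylation, folding, export and degradation, of which 61 were tested, was counted in the same fits. Between KO-vector and WT-vector cells in vehicle it had 35 lower and 14 higher genes and a median of -0.16, where 25.6% of all tested genes were lower and 22.7% higher with a median of -0.01. SERP1, a translocon partner, was at -0.50 ± 0.02 and TXNDC5, a disulfide isomerase, at -0.62 ± 0.14. Higher were CLGN, a lectin related to calnexin, at 0.75 ± 0.04 and CREB3L1, with a low mean log2 CPM of 1.14, at 0.67 ± 0.19. Between F137S and KO-vector cells 0 of 61 differed in vehicle (0.0836% of all tested genes, edgeR). Antimycin was followed by 9 higher and 22 lower genes in WT-vector cells, where 51.9% of all tested genes changed, and by 19 higher and 16 lower genes in KO-vector cells, where 51% did. The response differed between them in 3 genes (1.57% of all tested genes), all more positive in KO-vector cells, namely ERO1B (0.23 ± 0.06), SERP1 (0.20 ± 0.03) and SSR3 (0.17 ± 0.03). Between dMTS-DELE1 and F137S cells in vehicle 26 were higher and 9 lower (17.7% and 24.1% of all tested genes). CREB3L1 was at 0.74 ± 0.17, CLGN at 0.63 ± 0.04 and UBE2J1, a ubiquitin-conjugating enzyme of ERAD, at 0.34 ± 0.04.

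A list of 10 genes of the ATF4 branch, which includes ATF4, ATF3, DDIT3, CHAC1 and VLDLR, was counted in the same fits too. It was made with earlier results of these data known, so its counts are no independent test. Antimycin raised 10 of 10 in WT-vector cells, 9 in KO-vector cells and 10 in F137S cells, with medians of 1.05, 0.71 and 0.68. Of all tested genes 25.5%, 26.4% and 26.3% were higher, with medians of 0.01, 0.02 and 0.02. In the difference of response between KO-vector and WT-vector cells 4 were more negative and 0 more positive (0.729% and 0.836% of all tested genes), namely CHAC1 (-1.26 ± 0.18), SESN2 (-0.41 ± 0.05), ATF4 (-0.28 ± 0.02) and ATF3 (-0.22 ± 0.06). The 12 genes called among the 37 had the opposite sign in this same fit. F137S cells were above KO-vector cells in vehicle in NUPR1 (1.03 ± 0.19, edgeR, adjusted p = 0.00587) and VLDLR (0.40 ± 0.09, adjusted p = 0.0488). Under antimycin SESN2 was above as well (0.17 ± 0.03, edgeR, adjusted p = 0.00227). Of all 16739 tested genes 14 differed between these lines in vehicle and 19 under antimycin. Between dMTS-DELE1 and F137S cells in vehicle 10 of 10 were higher with a median of 1.74 (17.7% of all tested genes, median -0.02), led by NUPR1 (3.37 ± 0.14), CHAC1 (2.62 ± 0.11) and TRIB3 (2.30 ± 0.05). The 4 called genes with the largest differences of response between these 2 lines were all more negative in dMTS-DELE1 cells. They were CHAC1 (-1.30 ± 0.15), SESN2 (-0.60 ± 0.04), ATF3 (-0.27 ± 0.06) and DDIT3 (-0.27 ± 0.09). ATF4 did not pass the test (0.02 ± 0.02). Of all tested genes 1998 differed in this response, 69% of them more positive.

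Levels can be compared between genes only per length of transcript. Per kilobase of merged exon in GENCODE v29, WT-vector libraries in vehicle held 430 ± 6.56 CPM per kb of CALR, 382 ± 7.42 of HSPA5, 323 ± 2.17 of HSP90B1 and 273 ± 3.4 of CANX (mean ± SD, n = 4). These 4 stood above the other 33, where P4HB was next at 153 ± 1.36, and the spreads of neighbours in this order do not meet. ERN1, at 2.43 ± 0.11, was the lowest of the 35 genes with ample counts. The annotation behind the counts is unstated, so this order depends on the exon lengths chosen.

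DERL3 and EDEM2 were near the limit of detection. DERL3, a derlin of the ERAD channel, had 3 to 92 counts per library, with 82, 92, 90 and 18 in WT-vector cells under antimycin. Its call in KO-vector against WT-vector cells under antimycin (-1.56 ± 0.62, adjusted p = 0.0378) comes with overlapping libraries, and it was lost without the filter on low counts (adjusted p = 0.0528), with only the libraries compared (adjusted p = 0.0783) and without antimycin replicate 2 of the KO-vector libraries (adjusted p = 0.106). Of the bases in its exons, 77.0% are shared with SMARCB1 on the opposite strand in GENCODE v29, and without strand information the reads of the pair cannot be told apart. EDEM2, a mannosidase-like protein of ERAD, had 11 to 32 counts per library. In RefSeq it lies at chr20:35115364-35147336 inside the readthrough gene MMP24-AS1-EDEM2 (chr20:35115364-35278122), which has its own row with 0 to 14 counts, so reads shared by both may have been dropped or split. Both genes are uncertain.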

How the data were processed

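The authors deposited a table of raw counts per gene symbol for 40 libraries, and every column was matched to a sample by its name. Per the submitters' processing notes, HISAT2 2.1.0, featureCounts 2.0.6 and the build hg38 were used. The tool settings, gene annotation and strand mode were not given in the sources used here. Per the labels' protocols, poly(A) RNA was selected with oligo(dT) beads and primed with random hexamers, without molecular identifiers.

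From these counts, edgeR 4.0.16 (limma 3.58.1, R 4.3.3) fitted 1 coefficient per group over all 40 libraries, with TMM scaling, its filter on low counts and a robust quasi-likelihood test. P-values were adjusted by Benjamini-Hochberg over the 16739 genes tested, and a call is an adjusted p under 0.05. A difference of response is an interaction contrast in the same fit. CPM were computed from the counts with TMM library sizes, while marker levels used plain totals. The common biological coefficient of variation was 0.0509. In simulated data for the antimycin response of WT-vector cells, 38 of 50 genes changed by 0.32 on the log2 scale were recovered. Of genes changed by 1.5-fold it was 46 of 50, with 5 false among 141 calls. The simulation held 14414 genes, of which a small part changed, with the same spread for every gene. It covered only libraries of WT-vector and KO-vector cells, so its recovery does not carry over to the fits of the data.

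The members and lists were chosen with earlier results of these data known. Library values are given for up to 4 called members with the largest change per comparison, and for XBP1, ATF6, ERN1 and HSPA5. From the other lists up to 4 called genes with the largest change are named, with DDIT3, ATF4 and EIF2AK3. Libraries with the same replicate number did not deviate together (mean correlation -0.00102, range -0.0588 to 0.051). No 2 libraries of a group agreed within sampling noise (chi-square per gene 2.95 to 5.80). Alternatives were other scaling, no filter, DESeq2 1.42.0, only the libraries compared, the replicate block, a minimum log2 difference of 0.32, leaving out each library, and leaving out the 8 libraries labelled KO plus SLC25A12-WT.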

Additional observations from a re-analysis of the deposited data

Results flagged for a closer look

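Of 370 pairs of a gene and a group of 4 libraries, 15 (4.05%) held a library that stands apart from the other 3, where chance gives about 1 in 20. In KO-vector cells under antimycin these were CALR (replicate 4 at 838.1 CPM, others 859.2 to 861), SEL1L (replicate 4 at 86.7, others 81.5 to 81.9), SSR1 (replicate 1 at 254.9, others 241.8 to 243.3) and SEC24D (replicate 3 at 58.0, others 53.3 to 53.7). In WT-vector cells under antimycin they were DERL3 (replicate 4 at 0.583, others 2.64 to 2.97) and SEC61A1 (replicate 4 at 327.8, others 331.7 to 332.4). F137S cells in vehicle had PDIA6 (replicate 3 at 323.5, others 313.2 to 314.7), EDEM3 (replicate 3 at 117.5, others 112.7 to 113.0) and ATF6 (replicate 1 at 78.6, others 74.0 to 74.6). The dMTS-DELE1 cells had HSP90B1 under antimycin (replicate 1 at 1148, others 1175 to 1176) and CANX in vehicle (replicate 3 at 1846, others 1767 to 1780). The libraries labelled KO plus SLC25A12-WT had PDIA3 (replicate 1 at 596.7, others 581.1 to 583.5) and SYVN1 (replicate 1 at 66.2, others 63.8 to 64.0) in vehicle, and PDIA6 (replicate 3 at 377.9, others 368.6 to 369.9) and DERL1 (replicate 4 at 113.8, others 121.8 to 122.8) under antimycin.

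The log2 antimycin response differed between lines by the interaction test (edgeR, adjusted p under 0.05) in the following genes. For KO-vector minus WT-vector cells the differences were 0.45 for DNAJB9, 0.34 for SDF2L1, 0.30 for HERPUD1, 0.26 for MANF, 0.25 for CRELD2, 0.20 for HSPA5, 0.19 for EDEM3 and PDIA4, 0.17 for HYOU1 and DNAJB11, and 0.10 for SEC61A1 and PDIA6. For the libraries labelled KO plus SLC25A12-WT minus KO-vector cells they were -0.46 for DNAJB9, -0.30 for SDF2L1, -0.23 for HERPUD1, -0.22 for MANF, -0.19 for PDIA4, -0.17 for EDEM1 and EDEM3, -0.16 for HSPA5, -0.14 for HYOU1, -0.0945 for SEC61A1 and -0.0932 for PDIA3. For dMTS-DELE1 minus F137S cells they were 0.58 for DNAJB9, 0.40 for SEC24D, 0.33 for EDEM3, 0.22 for DNAJC3, 0.20 for SEL1L, 0.18 for XBP1, 0.17 for SYVN1, 0.16 for HERPUD1, SSR1 and ERLEC1, 0.14 for EDEM1, 0.12 for SEC61A1, -0.0755 for CALR and -0.17 for CRELD2.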

How the results depend on the processing

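Of the alternatives, 158 counts of called genes stayed within 1.5 times the reported count and 15 did not. The 158 include comparisons with 0 genes called, where a count of 0 again was taken as unchanged. Of the fits with 1 library left out, only the lowest and highest count per comparison entered this tally. Asking for a log2 difference of at least 0.32 as well as an adjusted p under 0.05 left, for the antimycin response, 2 genes in WT-vector cells, 0 in KO-vector cells, 1 among libraries labelled KO plus SLC25A12-WT, 0 in F137S and 2 in dMTS-DELE1 cells. In vehicle it left 12 for KO-vector against WT-vector cells, 11 for the labelled libraries against KO-vector cells and 5 for dMTS-DELE1 against F137S cells, and under antimycin 7, 7 and 10. For the differences of response it left 2 (KO-vector minus WT-vector), 1 (labelled libraries minus KO-vector) and 3 (dMTS-DELE1 minus F137S). Leaving out each library in turn gave 6 to 10 genes for the labelled libraries minus KO-vector cells, against 11 with all, and 7 of the 16 libraries brought it to 6 or 7 when left out. For KO-vector against WT-vector cells in vehicle it gave 30 to 31, and for their difference of response 10 to 12. Over all 20 comparisons, 63 of 311 calls of a gene also passed the minimum difference of 0.32. Under the other settings, 50 of the 311 were lost at least once, 49 of them with 1 library left out, and none of the 311 changed sign. With the replicate number as a block in the edgeR fit, the replicate block, 31 genes were called for KO-vector against WT-vector cells in vehicle and 11 for their difference of response, and no count moved by over 1.5 times. Of 40 libraries, 9 correlated best with their own number. At this depth and n = 4, the simulation recovered 2 of 50 changes of 1.1-fold in the antimycin response of WT-vector cells. It changed a far smaller part of its genes than changed in the data, so this share does not carry over. In the data PDIA4 was called at 1.07-fold in that response. Small differences may still be missed.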
